A study of Oryza sativa with 12 samples.

Results

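The JAZ (JASMONATE ZIM-DOMAIN) genes of rice were followed across meiosis-stage inflorescences of 2 lines grown at 2 temperatures. The members were the probe sets that the array's gene annotation assigns, by symbol or synonym with or without the prefix Os, to JAZ1, JAZ2, JAZ6, JAZ7, JAZ8, JAZ9, JAZ10, JAZ11, JAZ12 and JAZ13. All 10 genes, of 17905 genes with a probe set of their own, were on the array, and because JAZ10 had 2, the members were 11 of the 57258 probe sets. A second numbering of rice JAZ genes shares these names, so that 8 of the 10 names also stand as a synonym on another gene. A gene was therefore taken as a member only if it carried the name both with and without the prefix. In the TIFY nomenclature the members are TIFY3 (JAZ1), TIFY5 (JAZ2), TIFY10A, TIFY10B and TIFY10C (JAZ6, JAZ7 and JAZ8) and TIFY11A to TIFY11E (JAZ9, JAZ10, JAZ11, JAZ12 and JAZ13).

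TGMS-Co27 is a transgenic line in which overexpression of a construct derived from Ugp1 under the Ubi1 promoter cosuppresses Ugp1, the gene of a UDP-glucose pyrophosphorylase, and it is male sterile at high temperature and fertile at low temperature. H1493 is the wild-type variety in whose background the line was made. Florets came from TGMS-Co27 at low temperature (Co27LT), TGMS-Co27 at high temperature (Co27HT), H1493 at low temperature (H1493LT) and H1493 at high temperature (H1493HT). Each group had 3 biological replicates, each on its own Affymetrix rice array, so that there were 12 arrays. The low-temperature plants grew in winter at Lingshui at a daily average of 20 °C and the high-temperature plants in summer at Wuhan at 28 °C, with a different day length, so that temperature, day length, site and season cannot be told apart. TGMS-Co27 is 1 transgenic line, and an effect of the line cannot be told apart from one of the lost Ugp1 expression. The tissue is a whole inflorescence, in which fewer cells of a type and less RNA per cell cannot be told apart.

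JAZ proteins are the repressors of the jasmonate pathway. They bind MYC-type transcription factors and, through the adaptor NINJA, recruit TOPLESS-type corepressors to their promoters, until jasmonoyl-isoleucine joins them to the F-box receptor COI1 and they are degraded. The freed transcription factors commonly activate the JAZ genes themselves, so JAZ transcripts are widely read as early jasmonate-responsive genes, and in grasses the pathway takes part in spikelet development, anther opening and stress responses. JAZ1, also named EXTRA GLUME 2 (EG2), is known in rice for repressing the floral organ identity gene MADS1 in developing spikelets through its binding of MYC2.

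The deposited values are log2 signals, with a 2% trimmed mean of the linear signals near 500 on every array (500.065 to 500.076). Arrays of the same group correlated with r between 0.98 and 0.99 over probe sets whose log2 signals averaged 6 or more, and no 2 arrays were identical. Ugp1 had mean log2 signals of 12.89 ± 0.03 in Co27LT and 13.61 ± 0.03 in H1493LT, and of 11.40 ± 0.04 in Co27HT and 13.40 ± 0.04 in H1493HT (SD, n = 3 each). It was lower in TGMS-Co27 by 0.72 at low temperature (adjusted p = 0.0015) and by 2.01 at high temperature (adjusted p = 4.5e-06), and whether its probe set also detects the RNA of the transgene was not tested. All 8 floral organ markers, 7 of 8 meiocyte markers and 4 of 9 tapetum markers were called present on all 12 arrays, and none of these markers was absent throughout.

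Differences were tested with limma on all 12 arrays, with Benjamini-Hochberg adjustment over all 57258 probe sets. A probe set is called when its adjusted p is under 0.05 and its fold change at least 2, which is a log2 difference of 1, and a second count drops the fold. Counts at an unadjusted p under 0.05 have no minimum fold. They are given without the share of all probe sets passing that p, so no excess can be read from them. The same holds where arrays of 2 groups are said not to overlap. Differences are given on the log2 scale with the standard error (SE) of the fit. A mean log2 signal under 6 is close to background, and a difference against such a mean is not an exact size. JAZ2 was called present on 9 of the 12 arrays, and the other members were called present on all 12, so no member was removed by a filter on low values. Of the 57258 probe sets 23784 were never called present. They are part of every share of all probe sets given here, and shares among expressed probe sets are not given.

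At low temperature 4 of the 10 JAZ genes were called higher in TGMS-Co27 than in the wild type, and 8 passed the test without a minimum fold. With Co27LT compared with H1493LT, 5 of 11 probe sets, from the 4 genes JAZ2, JAZ9, JAZ10 and JAZ13, were called higher and 0 called lower, while 0.449% of all probe sets were called higher and 0.251% lower. Without that minimum, 9 probe sets from these 8 genes were higher and 0 lower, against 0.856% and 0.72% of all probe sets, and at an unadjusted p under 0.05 limma also gave 8 genes higher and 0 lower. The median log2 difference of the 10 genes was 0.81, beside -0.01 for all probe sets and -0.02 for the 24891 that averaged 6 or more.

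JAZ13, a TIFY11-type repressor, had log2 signals of 11.14, 11.002 and 10.97 in Co27LT and of 8.56, 8.44 and 8.80 in H1493LT. The groups did not overlap, and the difference was 2.43 ± 0.13 (SE, adjusted p = 3.7e-05), a 5.40-fold higher signal. Both probe sets of JAZ10, the TIFY11B gene, gave nearly the same difference. The brighter one had log2 signals of 12.63, 12.57 and 12.46 in Co27LT and 10.43, 10.40 and 10.52 in H1493LT, a difference of 2.104 ± 0.08 (SE, adjusted p = 9.9e-06). The other had 11.12, 11.11 and 11.16 in Co27LT and 9.03, 9.03 and 8.93 in H1493LT, a difference of 2.14 ± 0.13 (SE, adjusted p = 8.9e-05). JAZ9, the TIFY11A gene, known in rice for its part in salt tolerance, had 10.16, 10.16 and 10.29 in Co27LT against 8.84, 8.64 and 8.69 in H1493LT. This was 1.48 ± 0.10 higher (SE, adjusted p = 0.00015), again without overlap.

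JAZ2 differed most in size. Its log2 signals were 11.23, 11.36 and 11.41 in Co27LT and 5.46, 6.01 and 6.23 in H1493LT, a difference of 5.43 ± 0.29 (SE, adjusted p = 3.9e-05). All 3 Co27LT arrays lay far above all 3 H1493LT arrays, whose mean of 5.90 is close to background, so that the fitted 43.3-fold is not an exact size. JAZ2 is the TIFY5-type member, the type that in Arabidopsis includes repressors with their own corepressor-binding motif. The only probe set of JAZ2 has a name ending in _s_at, and whether it also detects other transcripts was not tested.

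The remaining members differed less at low temperature. JAZ6 (0.72 ± 0.10), JAZ8 (0.59 ± 0.08), JAZ11 (0.79 ± 0.08) and JAZ12 (0.82 ± 0.14) were higher in Co27LT with adjusted p-values of 0.0065, 0.0051, 0.001 and 0.02 and less than 2-fold. The adjusted p of JAZ12 was 0.0644 to 0.0872 when any 1 of the 6 Co27LT and H1493LT arrays was left out. With only these 6 arrays in the fit, JAZ6 had an adjusted p of 0.0555 and JAZ8 of 0.0822, and with each array centred on its median JAZ8 had 0.0516 and JAZ12 0.051. JAZ1 (0.01 ± 0.08, 95% interval -0.17 to 0.19) and JAZ7 (0.16 ± 0.08, interval -0.03 to 0.34) did not pass the test.

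**Figure D1:**
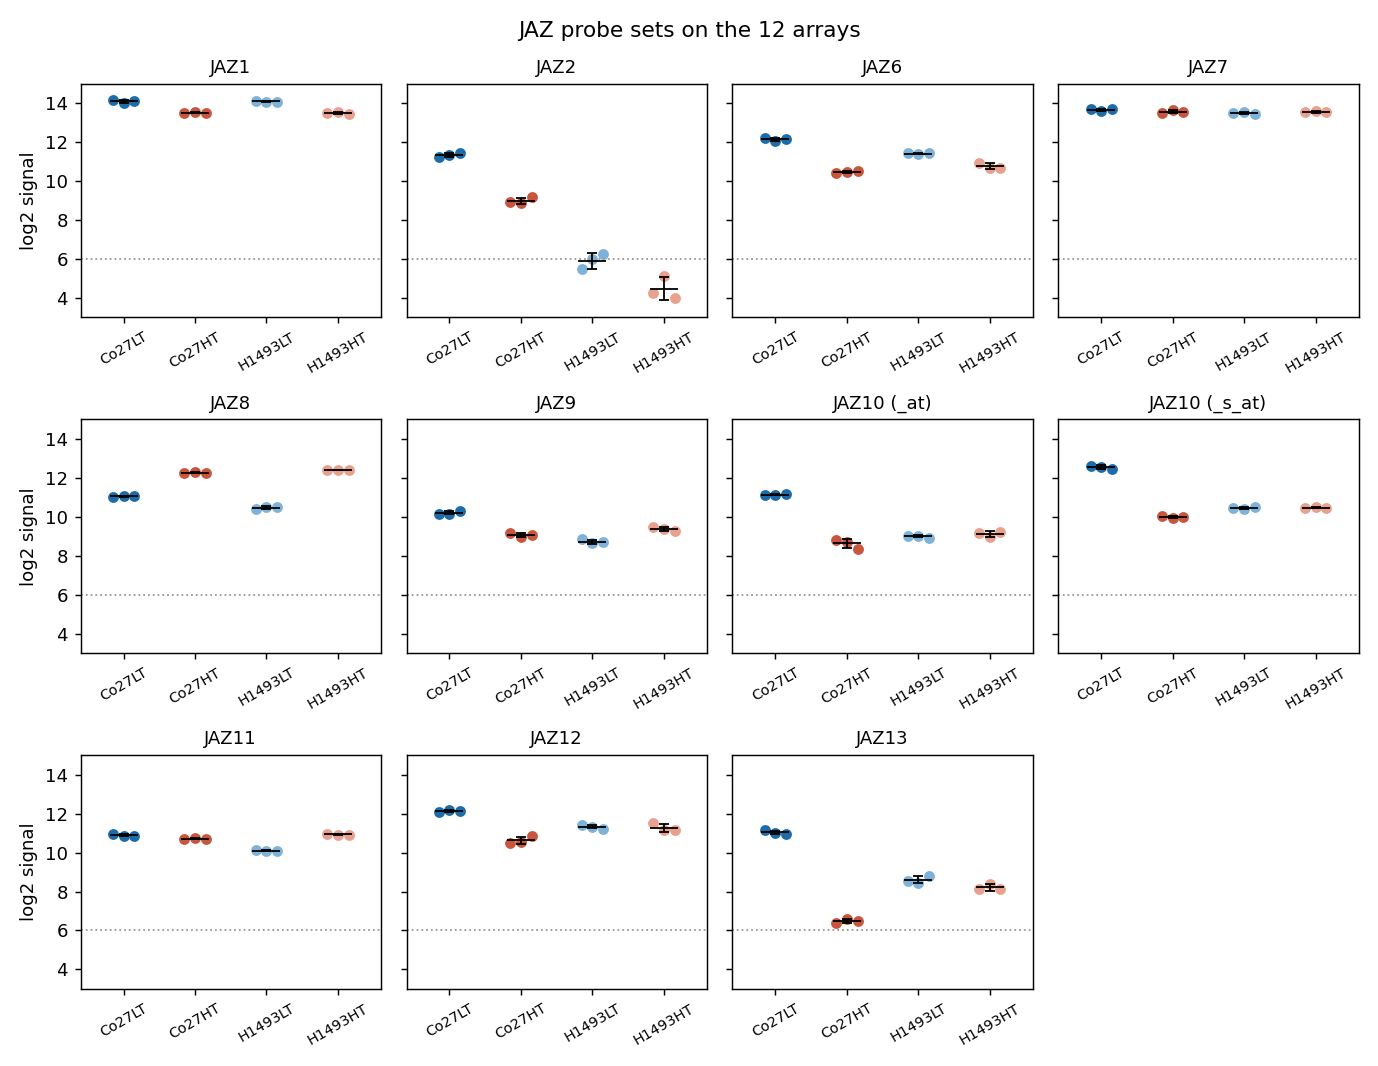
Log2 signal (y axis) of each JAZ probe set on the 12 arrays, by group (x axis). Points are arrays, horizontal bars group means, error bars 1 SD (n = 3), and the dotted line is a log2 signal of 6. The 3 Co27LT arrays are the highest for JAZ2, JAZ6, JAZ9, JAZ12, JAZ13 and both JAZ10 probe sets, while JAZ13 is lowest in Co27HT.

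At high temperature 2 JAZ genes were called between the lines, in opposite directions. With Co27HT compared with H1493HT, JAZ2 was called higher and JAZ13 lower, and these were 1 and 1 of 11 probe sets, while 0.257% of all probe sets were called higher and 0.4% lower. Without the minimum fold, 1 was higher and 3 were lower, against 0.833% and 1.74% of all probe sets. At an unadjusted p under 0.05 limma gave 7 of the 10 genes, 1 higher and 6 lower. The median of the 10 genes was -0.26, beside 0.03 for all probe sets.

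JAZ2 had log2 signals of 8.89, 8.84 and 9.17 in Co27HT and 4.24, 5.13 and 3.99 in H1493HT. The difference was 4.51 ± 0.29 (SE, adjusted p = 2e-04), and with all signals floored at 5 it was 3.93. JAZ13 had 6.36, 6.56 and 6.49 in Co27HT against 8.11, 8.41 and 8.12 in H1493HT, and fell by 1.74 in Co27HT (SE 0.13, adjusted p = 0.00045). JAZ2 was thus higher in TGMS-Co27 at both temperatures, whereas JAZ13 was higher there at low and lower at high temperature. Fitted on the 6 high-temperature arrays alone, both calls were lost, with an adjusted p of 0.051 for JAZ2 and 0.0662 for JAZ13 and the same differences.

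JAZ10 and JAZ12 were the other members below the threshold on adjusted p at high temperature. The brighter JAZ10 probe set was lower in Co27HT by 0.47 (adjusted p = 0.026), and the other by 0.49 (adjusted p = 0.096). JAZ12 was lower by 0.64 (adjusted p = 0.049). Both were close to the threshold. The adjusted p of the brighter JAZ10 probe set was 0.0504 to 0.0868 without any 1 of 8 arrays, which are Co27LT replicate 2, Co27HT replicates 1 and 2, H1493LT replicates 1 and 2 and the 3 of H1493HT. That of JAZ12 was 0.0762 to 0.146 without any 1 array other than Co27HT replicate 3, and 0.054 after quantile normalization. With only the 6 high-temperature arrays the adjusted p-values were 0.26 for the brighter JAZ10 probe set and 0.322 for JAZ12. JAZ6, JAZ8, JAZ9 and JAZ11 had differences of -0.30, -0.12, -0.32 and -0.21 with adjusted p-values of 0.16, 0.5, 0.14 and 0.19. The 3 Co27HT arrays lay below the 3 H1493HT arrays for each of these 4 genes. How many of all probe sets separate in this way was not counted, so nothing is read from it. With signals floored at 5, JAZ6, JAZ9, JAZ11 and the dimmer JAZ10 probe set had the same differences with adjusted p-values of 0.0381, 0.0361, 0.00574 and 0.0392, and JAZ8 had 0.0633. These 4 probe sets also passed in the fits to present or brighter probe sets alone and with a trended, robust variance, so that how many members were lower in Co27HT depended on the setting. For JAZ1 the difference was 0.03 (interval -0.15 to 0.21) and for JAZ7 0.00 (interval -0.18 to 0.19), and both signs turned with each array centred on its median.

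**Figure D2:**
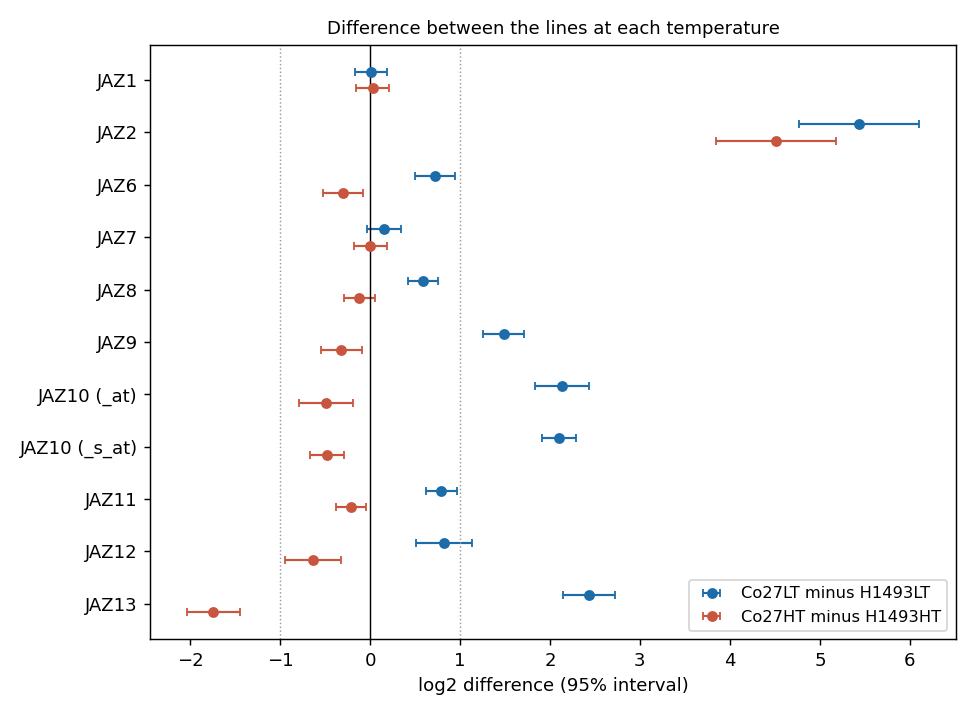
Log2 difference between the lines (x axis, points with 95% intervals) of each JAZ probe set (y axis), as Co27LT minus H1493LT and as Co27HT minus H1493HT. Dotted lines mark a 2-fold difference. At low temperature all 11 values lie above 0, with JAZ2 at 5.43 and JAZ13 at 2.43, and at high temperature JAZ13 lies at -1.74 while JAZ2 is at 4.51.

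Between temperatures the JAZ genes moved widely in TGMS-Co27. With Co27LT compared with Co27HT, 7 of 11 probe sets, from 6 genes, were called higher and 1 called lower. Over all probe sets 7.05% were called higher and 7.3% lower, so growth condition changed many genes. Without the minimum fold 8 members were higher and 1 was lower, against 15.1% and 14.7%. The JAZ median was 1.33 as deposited, 1.26 after quantile normalization and 1.62 with each array centred on its median, while the median of all probe sets was -0.16 as deposited and 0.12 with median centring.

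JAZ13 was higher in Co27LT by 4.57 ± 0.13 (SE, adjusted p = 8.1e-08), a 23.7-fold difference between arrays at 10.97 to 11.14 in Co27LT and at 6.36 to 6.56 in Co27HT. JAZ10 followed with 2.56 ± 0.08 (adjusted p = 1.7e-07) and 2.50 ± 0.13 (adjusted p = 1.6e-06) for its brighter and its dimmer probe set, then JAZ2 with 2.36 ± 0.29 (adjusted p = 0.00024). JAZ6 (1.68 ± 0.10), JAZ12 (1.51 ± 0.14) and JAZ9 (1.16 ± 0.10) were also called higher, with adjusted p-values of 2.6e-06, 3.4e-05 and 2.4e-05. JAZ6 is of the TIFY10 type, and its arrays lay at 12.22, 12.04 and 12.13 in Co27LT and at 10.40, 10.45 and 10.52 in Co27HT.

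JAZ8, the TIFY10C gene, known in rice for its part in resistance to bacterial blight, went the other way. Its log2 signals were 11.03, 11.06 and 11.06 in Co27LT and 12.26, 12.31 and 12.25 in Co27HT, and it fell by 1.22 in Co27LT (SE 0.08, adjusted p = 3.6e-06), or by 0.94 with each array centred on its median, which is under a 2-fold change. JAZ1 was higher in Co27LT by 0.58 ± 0.08 (adjusted p = 0.00041), less than 2-fold. JAZ7 (0.09 ± 0.08) and JAZ11 (0.16 ± 0.08) had adjusted p-values of 0.49 and 0.15, and JAZ7 reached 0.0111 after quantile normalization and JAZ11 0.0223 with median centring and 0.00318 with a floor of 5.

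In the wild type 2 members were called between the growth conditions. With H1493LT compared with H1493HT, 1 of 11 probe sets was called higher (JAZ2) and 1 lower (JAZ8), while 5.34% of all probe sets were called higher and 6.23% lower. Without the minimum fold 3 were higher and 3 lower, against 13.8% and 13%. The median of the 10 genes was 0.02 as deposited and 0.20 with median centring, and that of all probe sets -0.07 and 0.11.

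JAZ8 had log2 signals of 10.38, 10.52 and 10.48 in H1493LT and 12.40, 12.38 and 12.38 in H1493HT, and fell by 1.93 in H1493LT (SE 0.08, adjusted p = 4.9e-07). JAZ2 was higher in H1493LT by 1.44 ± 0.29 (adjusted p = 0.0051), but both groups were close to background, the difference was 0.85 with a floor of 5, and the adjusted p was 0.0556 with only these 6 arrays. JAZ1 was higher by 0.60 ± 0.08 (adjusted p = 4e-04) and JAZ6 by 0.66 ± 0.10 (adjusted p = 0.00079). JAZ9 was lower in H1493LT by 0.65 (SE 0.10, adjusted p = 0.001) and JAZ11 by 0.84 (SE 0.08, adjusted p = 3.8e-05). JAZ10 differed by -0.02 ± 0.08 and -0.12 ± 0.13 (brighter and dimmer probe set), JAZ12 by 0.05 ± 0.14 and JAZ7 by -0.06 ± 0.08, none past the threshold. JAZ13 differed by 0.39 ± 0.13 (adjusted p = 0.053), and by 0.57 (adjusted p = 0.0077) with median centring and 0.33 (adjusted p = 0.116) after quantile normalization. Its adjusted p was 0.0303 with a floor of 5, and 0.0457 and 0.0303 without H1493LT or H1493HT replicate 2.

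The line-by-temperature interaction, (Co27LT - Co27HT) - (H1493LT - H1493HT), tests whether the temperature difference was the same in both lines. Of the 11 probe sets 7, from the 6 genes JAZ6, JAZ9, JAZ10, JAZ11, JAZ12 and JAZ13, had a called positive interaction and 0 a negative one (7 and 0 of the 10 genes at an unadjusted p under 0.05), against 0.395% and 0.196% of all probe sets. Without the minimum size there were 8 and 0, against 0.576% and 0.36%. The median interaction of the 10 genes was 1.01, beside -0.03 for all probe sets.

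The largest was that of JAZ13, 4.18 ± 0.18 (SE, adjusted p = 0.00012), followed by JAZ10 with 2.58 ± 0.12 (adjusted p = 0.00012) for its brighter and 2.62 ± 0.19 (adjusted p = 0.00072) for its dimmer probe set. For these 2 genes and for JAZ12 (1.46 ± 0.19, adjusted p = 0.013), the temperature difference in H1493 was under 0.4 and that in TGMS-Co27 over 1.5. JAZ9 (1.80 ± 0.14, adjusted p = 0.00098) moved in opposite directions, up at low temperature in TGMS-Co27 and down in H1493. JAZ11 had an interaction of 1.005 ± 0.11 (adjusted p = 0.0045) through its fall in H1493LT, and JAZ6 one of 1.02 ± 0.14 (adjusted p = 0.013), with a rise in both lines.

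JAZ6 and JAZ11 stood at the edge of the size threshold. The JAZ6 interaction was 0.94 to 0.99 without Co27LT replicate 1, Co27HT replicate 1 or H1493HT replicate 1, and that of JAZ11 0.98 to 0.9986 without Co27LT replicate 1, Co27HT replicate 1 or 3, H1493LT replicate 2 or H1493HT replicate 1, with the adjusted p under 0.05 in all of these fits. JAZ8 had 0.70 ± 0.11 (adjusted p = 0.021), with an adjusted p of 0.0522 to 0.0675 without any 1 array other than Co27HT replicates 2 and 3, and of 0.0804 with median centring. The interactions of JAZ1 (-0.02, interval -0.27 to 0.24) and JAZ7 (0.15, interval -0.11 to 0.42) did not pass. Neither did that of JAZ2 (0.92 ± 0.42, interval -0.02 to 1.86, adjusted p = 0.4), which was 1.51 (adjusted p = 0.0148) with a floor of 5.

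**Figure D3:**
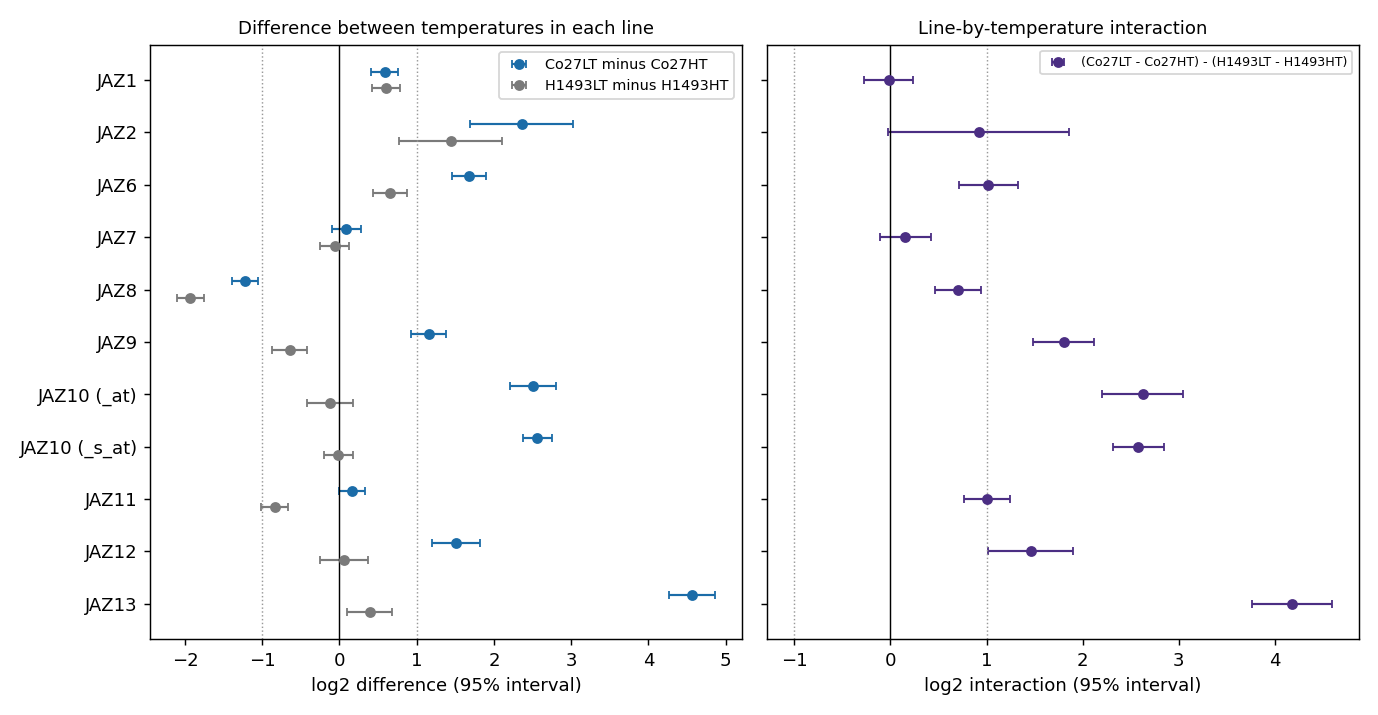
Left, log2 difference between low and high temperature (x axis, 95% intervals) of each JAZ probe set (y axis) in TGMS-Co27 and in H1493. Right, the difference between those differences. JAZ13 has the largest interaction, 4.18, JAZ1 lies at -0.02, and JAZ8 is lower at low temperature in both lines.

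The order of the 4 group means differed among the members. The shares of all probe sets with such orders or separations were not counted, so the orders are description only. Co27LT was highest and Co27HT lowest for JAZ6, JAZ10, JAZ12 and JAZ13. For JAZ6 and JAZ13 the order was Co27LT, H1493LT, H1493HT and Co27HT with no overlap between neighbours, for JAZ12 the arrays of H1493LT and H1493HT overlapped, and for JAZ10 those of H1493HT and H1493LT overlapped in both probe sets. JAZ9 ran from Co27LT through H1493HT and Co27HT down to H1493LT, without overlap. JAZ2 was ordered Co27LT, Co27HT, H1493LT and H1493HT, also without overlap. JAZ1 was higher at low than at high temperature in both lines, and the lines overlapped at each temperature. JAZ8 was highest in H1493HT, then Co27HT, Co27LT and H1493LT, without overlap, JAZ11 was highest in H1493HT and overlapped there with Co27LT, and for JAZ7 every neighbouring pair overlapped.

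Of the 6 genes with a called interaction, 5 lie beside another one in the annotation. JAZ9, JAZ11 and JAZ10 follow one another on chromosome 3, and JAZ13 and JAZ12 are neighbours on chromosome 10 among the genes that have a probe set. The genes next to the trio had log2 interactions of 0.35 (LOC4331831, adjusted p = 0.56) and -0.06 (LOC4331835, adjusted p = 0.94). Those next to the pair had 0.15 (LOC4348528, adjusted p = 0.8) and 0.73 (OsSPX3, adjusted p = 0.16), so none of these 4 passed the threshold. JAZ6, on another part of chromosome 3, is the gene with a called interaction outside these places, and JAZ1, JAZ2, JAZ7 and JAZ8 are on chromosomes 4, 7, 7 and 9. Neighbouring JAZ genes are related in sequence, and how far their probe sets share targets was not tested. JAZ2 lies apart from other members, and of the 4 genes around it with a probe set 1, LOC4342422, differed between the lines, by -0.55 at low temperature (adjusted p = 0.0094) and -0.55 at high temperature (adjusted p = 0.013), opposite in sign to JAZ2.

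**Figure D4:**
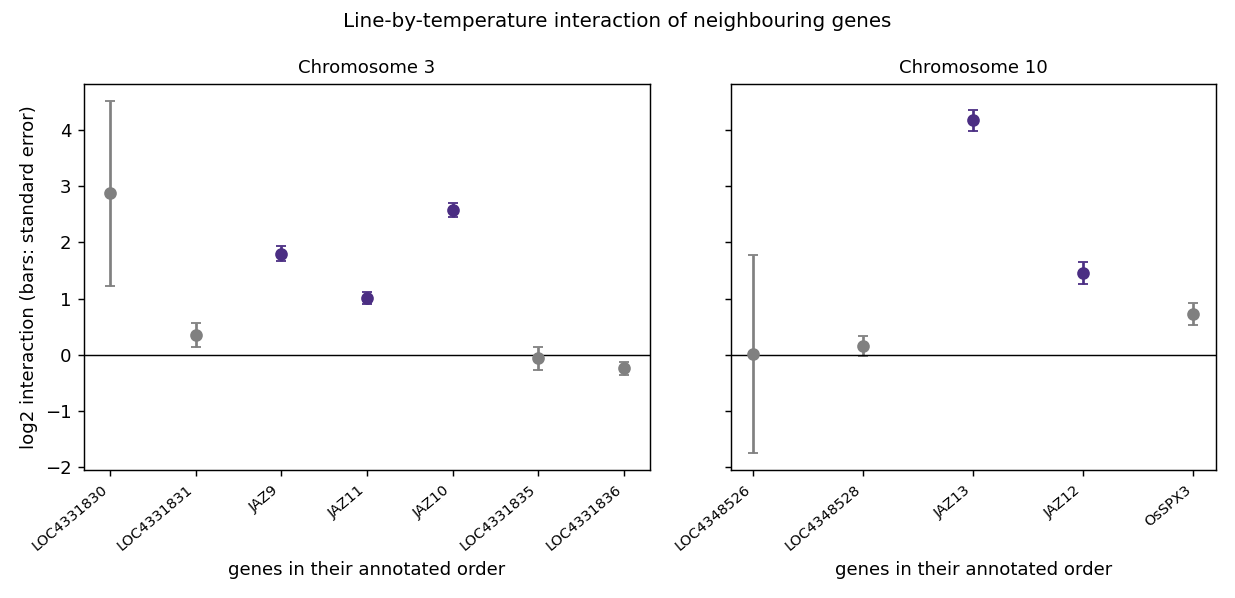
Log2 line-by-temperature interaction (y axis, points with SE) of the JAZ genes on chromosomes 3 and 10 and of the nearest annotated genes with a probe set, in their order along the chromosome (x axis, not to scale). JAZ genes are drawn dark, other genes grey, and JAZ10 is shown by its brighter probe set. JAZ9, JAZ11, JAZ10, JAZ13 and JAZ12 lie at 1.005 or above, and the direct neighbours between -0.06 and 0.73, while the outermost genes LOC4331830 and LOC4348526 are close to background.

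Other genes of the jasmonate pathway are given for comparison, without a test of their difference from the JAZ genes. Of 16 genes of jasmonate synthesis, 0 were called by limma at either temperature or in the interaction, where the shares over all probe sets were 0.449% higher and 0.251% lower at low temperature. At an unadjusted p under 0.05, with no minimum fold, there were 6 at low temperature, 2 at high temperature and 4 in the interaction. Without the minimum fold, 1 was higher in Co27LT than in H1493LT, AOS1, an allene oxide synthase, with 0.80 ± 0.10 (adjusted p = 0.0043) between means of 10.97 and 10.17. LOX5, the brightest of the 16 on average, had means of 13.02 in Co27LT and 12.97 in H1493LT (0.05, adjusted p = 0.92). AOC, the allene oxide cyclase gene, had means of 12.65 in Co27LT and 12.22 in H1493LT (0.43, adjusted p = 0.067), and OPR7, an oxophytodienoate reductase, 11.91 and 11.68 (0.23, adjusted p = 0.38). The median of the 16 was 0.13 at low temperature. Of the 16, CM-LOX1, CM-LOX2, AOS4 and OPR6 were never called present, and LOX3, AOS2 and AOS3 were present on 1, 2 and 3 of the 12 arrays. For these genes the lack of a call says little.

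The receptor and corepressor list held COI1A, COI1B, COI2, NINJA, TPR1 and TPR2, and 0 of these 6 were called by limma between the lines or in the interaction (0 at low temperature, 1 at high temperature and 0 in the interaction at an unadjusted p under 0.05). Their medians were -0.02 at low and 0.01 at high temperature. Over all probe sets 0.449% were called higher and 0.251% lower at low temperature, and 0.257% and 0.4% at high temperature. A called interaction was positive for 0.395% and negative for 0.196%. COI1A, a jasmonate receptor, had means of 12.74 in Co27LT and 12.75 in H1493LT, and of 13.59 in Co27HT and 13.57 in H1493HT. Of the 2 genes for jasmonate conjugation and release, JAR1 and ILL6, 0 were called between the lines, and 0 at an unadjusted p under 0.05. MADS1, the gene that JAZ1 is known to repress, differed by -0.08 at low temperature (adjusted p = 0.85) and 0.01 at high temperature (adjusted p = 0.96).

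Among the transcription factors, bHLH148, which binds a JAZ protein in rice, had a level pattern like that of JAZ13. Its mean log2 signals were 9.98 in Co27LT, 5.05 in Co27HT, 8.09 in H1493LT and 6.68 in H1493HT. It was higher in Co27LT than in Co27HT by 4.93 (adjusted p = 5.8e-05, against a mean close to background), but its interaction of 3.53 had an adjusted p of 0.058, and the line differences of 1.89 and -1.64 had 0.13 each. JAMYB, a jasmonate-induced factor, was lower at low temperature in both lines, by 3.33 in Co27LT and 3.94 in H1493LT. Its means of 4.70 in Co27LT and 4.37 in H1493LT are close to background, so these sizes are not exact. Of 4 jasmonate-responsive defence genes, 1 was called between the lines, PBZ1, with a difference of 1.01 for Co27HT minus H1493HT (adjusted p = 0.019) and of 0.91 for Co27LT minus H1493LT (adjusted p = 0.026). Over all probe sets 0.257% were called higher in Co27HT than in H1493HT. SALT, the gene of a jacalin-type lectin, differed between the lines by -0.44 at low temperature (adjusted p = 0.14).

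Between temperatures, 4 of the 16 synthesis genes were called higher and 3 lower in Co27LT relative to Co27HT, against 7.05% and 7.3% of all probe sets. In H1493LT relative to H1493HT they were 3 and 2, against 5.34% and 6.23%. Those called lower were LOX3 and AOS3 in both lines and OPR5 in TGMS-Co27. Each had a low-temperature mean close to background, so the sizes are not exact. OPR2 was higher by 2.66 and 1.73, LOX5, a lipoxygenase, by 1.34 and 1.38, and OPR7 by 1.06 and 1.03, in TGMS-Co27 and in H1493. AOS1 was higher by 1.39 in TGMS-Co27 and 0.78 in H1493, and was called in TGMS-Co27 alone. COI1B was lower in Co27LT by 1.01 (adjusted p = 2.5e-05) and in H1493LT by 0.84 (adjusted p = 9.9e-05). SALT was lower in Co27LT, with means of 7.38 in Co27LT and 14.22 in Co27HT, and in H1493LT, with means of 7.82 in H1493LT and 14.20 in H1493HT (adjusted p = 1.4e-08 and 5.4e-08).

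Of the other TIFY genes 7 had a probe set, among them JAZ3, JAZ4 and JAZ5, and 0 were called by limma between the lines (1 at low and 2 at high temperature at an unadjusted p under 0.05). Over all probe sets 0.449% were called higher and 0.251% lower at low temperature, and 0.257% and 0.4% at high temperature. For JAZ4 the difference of Co27LT minus H1493LT was 0.53 (adjusted p = 0.03), and for JAZ3 it was 0.18 (adjusted p = 0.73). JAZ5 was never called present. TIFY1A was called higher at low temperature in both lines, by 1.51 and 1.16.

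**Figure D5:**
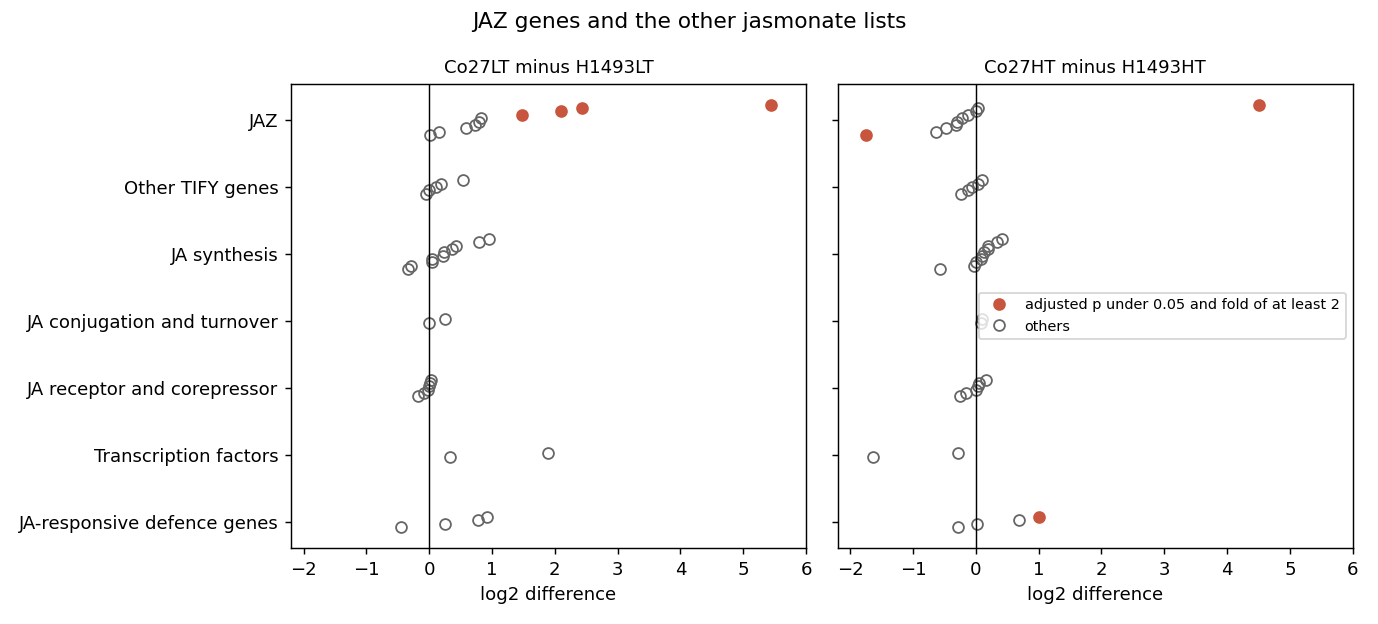
Log2 difference between the lines (x axis) of the JAZ genes and of the genes in 6 other jasmonate lists (y axis) at low temperature (left) and at high temperature (right). Each point is a gene whose mean reached a log2 signal of 6 in 1 group or more, shown by its brightest probe set, and filled points are called. At low temperature 4 genes are called, all of them JAZ genes, and at high temperature JAZ2, JAZ13 and PBZ1.

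For each member called between the lines, the named genes with the most similar pattern were sought among 2483 named single-gene probe sets of mean log2 signal 6 or more (2482 for JAZ10), by Pearson's correlation over the 12 arrays, which share 4 group means. For the brighter JAZ10 probe set they were GRXS5, a glutaredoxin (r = 0.991), CIPK21, a calcineurin B-like-interacting protein kinase (r = 0.989), and LTR1 (r = 0.984). For the dimmer one they were OsTPP7, a trehalose-6-phosphate phosphatase (r = 0.985), GRXS5 (r = 0.979) and DI19-3 (r = 0.968). OsTPP7 was 2.22 higher in Co27LT than in H1493LT (adjusted p = 2.5e-05), with means of 11.95 and 9.74, and its difference at high temperature was -0.08. For JAZ13 they were GRXS9 (r = 0.976), JAZ12 (r = 0.965) and the potassium transporter gene HAK7 (r = 0.963), and for JAZ9 OsC3H33 (r = 0.968), BRXL2 (r = 0.931) and the phytoene synthase gene OsPSY3 (r = 0.916). JAZ2 had CML30, a calmodulin-like gene (r = 0.962), GRF7 (r = 0.956) and IAA21 (r = 0.954), whose line differences at low temperature were 0.82, 0.33 and 0.77, far smaller than that of JAZ2.

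Markers of cell types moved with some of the same comparisons. Over all probe sets 0.449% were called higher and 0.251% lower at low temperature, and 0.257% and 0.4% at high temperature. A called interaction was positive for 0.395% and negative for 0.196%. At low temperature 2 of 9 tapetum markers were called lower in Co27LT than in H1493LT, TDR by 1.06 (adjusted p = 0.016) and CYP703A3 by 1.64 (adjusted p = 0.013). The Co27LT mean of CYP703A3, 5.62, is close to background. Summed levels of the 9 (log2) were 12.66 to 12.68 in Co27LT and 12.65 to 12.75 in H1493LT. At high temperature 0 of the 9 were called by limma (3 at an unadjusted p under 0.05), with sums of 12.95 to 13.03 in Co27HT and 12.74 to 12.80 in H1493HT. These sums of linear signals are made up mostly of MSP1, the brightest of the 9. MSP1 differed between the lines by 0.15 at low temperature (adjusted p = 0.62) and 0.49 at high temperature (adjusted p = 0.019). The median difference of the 9 was -0.59 at low and -0.14 at high temperature. Of 4 green tissue markers, 2 were called lower in Co27HT than in H1493HT, CAB2R by 1.92 (adjusted p = 2e-04) and PORA by 1.33 (adjusted p = 0.00022), and CAB2R had a called interaction of 1.37 (adjusted p = 0.011). A dimmer CAB2R probe set did not share this pattern. Its line difference was -0.98 at high temperature (adjusted p = 0.0037) and -1.06 at low temperature (adjusted p = 0.0013), nearly the same at both. Sums of the 4 green tissue markers were 14.14 to 14.17 in Co27LT and 14.69 to 14.75 in H1493LT, and 11.77 to 11.82 in Co27HT and 12.73 to 12.86 in H1493HT. The low-temperature sums are made up mostly of the brighter CAB2R probe set. None of the 8 floral organ and 8 meiocyte markers was called by limma between the lines (1 and 1 at low temperature, 1 and 4 at high temperature at an unadjusted p under 0.05), with meiocyte sums of 13.63 to 13.66 in Co27LT and 13.71 to 13.76 in H1493LT. The meiocyte sums are made up mostly of MEL1. The median line difference of the 8 meiocyte markers was 0.07 at low and -0.39 at high temperature, and their median interaction was 0.54. Of the 4 at an unadjusted p under 0.05 at high temperature, 3 were lower in Co27HT and 1 was higher. The higher one was MEL1, with 0.22 (adjusted p = 0.23), so the sums do not show the direction of the median there. The part of these markers in the JAZ differences was not tested.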

How the data were processed

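The authors hybridised each RNA to an Affymetrix rice array and, per their methods and notes, processed it with GeneChip Operating Software and MAS5. They deposited log2 signals per probe set and detection calls, used here as deposited. Their methods name quantile normalization, but the arrays do not share 1 distribution. Between 545 and 1968 log2 values per array are 0. After 123 control probe sets were left out, 57258 remained, of which 22436 carry 1 gene and 95 several in the array's annotation. Gene order came from NCBI RefSeq's annotation. The Ugp1 probe set was identified through the study's supplementary tables.

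Group means and 5 contrasts were fitted to all 12 arrays with the limma package 3.58.1 under R 4.3.3 (functions lmFit and eBayes, 0.99 prior and 8 residual degrees of freedom). The fit was tested on simulated data. Of several probe sets of a gene, the brightest on average represents it. All JAZ probe sets are named, and from the other lists up to 4 called genes and 3 of the brightest uncalled ones per comparison, besides genes named for a signal close to background. The JAZ members and all lists were chosen with earlier results of these data known, and 6 list names that the annotation gives to another gene were dropped. The alternatives were other thresholds, filters, scalings and models, and each array left out. With 3 arrays in a group, precision is limited by their number.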

Additional observations from a re-analysis of the deposited data

Results flagged for a closer look

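The temperature difference of 6 JAZ genes was not the same in the 2 lines, by limma's test of the interaction with an adjusted p under 0.05 and a log2 value of at least 1. The values were 4.18 for JAZ13, 2.58 and 2.62 for the brighter and dimmer probe set of JAZ10, 1.80 for JAZ9, 1.46 for JAZ12, 1.02 for JAZ6 and 1.005 for JAZ11. Each is positive, meaning that the signed difference of low minus high temperature was greater in TGMS-Co27 than in H1493. In absolute size this does not hold for JAZ11, with 0.16 in TGMS-Co27 and -0.84 in H1493. The same values say that the signed difference of TGMS-Co27 minus H1493 was greater at low temperature.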

How the results depend on the processing

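Of 24 called member values, 0 changed sign under the 24 alternatives, and 7 lost the call under 1 or more of them, as given beside each, or below for the replicate block. Counts of called probe sets stayed within 1.5 times in all other cases than the following. Without the minimum fold they were 4 for Co27HT against H1493HT, 9 for Co27LT against H1493LT and 6 for H1493LT against H1493HT. With only the arrays compared they were 0 for Co27HT against H1493HT and 1 for H1493LT against H1493HT, and this setting cannot be had for the interaction. A floor of 5 left 1 for H1493LT against H1493HT. Without probe sets ending in _x_at or _s_at, which leaves 8 members, they were 1 for Co27HT against H1493HT, 3 for Co27LT against H1493LT, 5 for Co27LT against Co27HT and 1 for H1493LT against H1493HT. JAZ2 and JAZ6 have only an _s_at probe set and are not in that fit. Leaving out each array gave 5 to 7 called interactions and changed no other count. Counting JAZ3, JAZ4 and JAZ5 as members, added after seeing the data, changed no count.

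Signs turned only in uncalled values near 0. With quantile normalization these were JAZ1 at -0.10 and JAZ7 at -0.12 for Co27HT minus H1493HT, JAZ7 at 0.031 for H1493LT minus H1493HT, and the JAZ1 interaction at 0.10. With median centring they were -0.074, -0.099, 0.12 and 0.086 in the same order, and 0.057 and 0.16 for the dimmer and the brighter JAZ10 probe set in H1493LT minus H1493HT. With each array left out, JAZ1 ranged over -0.031 to 0.052 for Co27LT minus H1493LT and over -0.060 to 0.024 for the interaction, and JAZ7 over -0.041 to 0.032 for Co27HT minus H1493HT. For H1493LT minus H1493HT the brighter JAZ10 probe set ranged over -0.049 to 0.0096 and JAZ12 over -0.013 to 0.18. The cause was not tested.

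With the replicate number as a block, 5 interactions were called instead of 7, JAZ6 and JAZ12 having adjusted p-values of 0.0537 and 0.0628, and the other counts did not change. Values that passed without the minimum fold and missed the threshold with the block were the JAZ8 interaction (0.0872), JAZ12 (0.0817) for Co27LT minus H1493LT, and the brighter JAZ10 probe set (0.0873) and JAZ12 (0.124) for Co27HT minus H1493HT. Deviations of arrays with the same number correlated between -0.10 and 0.04 over 18 pairs, and those of arrays with other numbers between -0.04 and 0.115 over 36 pairs. Whether arrays share a batch that affects few genes was not tested. Signal close to background limits JAZ2 in H1493.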
